A study of Homo sapiens with 6 samples.

Results

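The genes examined were 10 components of pericellular proteolysis in MDA-MB-231 cells, namely 6 matrix metalloproteinases (MMP1, MMP2, MMP3, MMP9, MMP13 and MMP14), 3 of their tissue inhibitors (TIMP1, TIMP2 and TIMP3) and basigin (BSG). They were taken by symbol, and all 10 were found among the 60612 gene identifiers in the data. MDA-MB-231 is an established human triple-negative breast cancer cell line. RNA was collected on day 3 from cells that carried a stable control hairpin (Sh-NC, genotype labelled WT) or a stable short hairpin RNA directed at the transcriptional coactivator YAP1 (Sh-YAP1, genotype labelled YAP1 knockdown), with 3 libraries per group and no drug treatment in either. Whether each line was a single clone, how many hairpin sequences were used and whether the libraries came from separate cultures are not given in the sources used here, so p-values measure the spread between these libraries. Expression is in FPKM, a fragment count divided by transcript length and by the mapped total of the library. The data list several rows per gene identifier with no transcript name. Each row was taken as 1 transcript, because all 10 genes had as many rows as GENCODE 29 lists transcripts, and the value of a gene is the sum of its rows. Of the 37 related genes described last, 32 also matched and 5 did not (MMP21, PCSK5, PCSK7, ADAM17 and ADAMTS5), so what a row stands for is less sure there. Rows were matched between libraries by their place in the tables, whose gene identifiers run in the same order. The depth of the libraries is unknown because the values carry no counts.

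Matrix metalloproteinases are zinc-dependent endopeptidases that are made as inactive proenzymes and cleave collagens, gelatin and other matrix proteins once the prodomain is removed. TIMPs are secreted proteins that bind the active site of these enzymes, and TIMP2 in addition forms the complex with cell-surface MMP14 through which proMMP2 is activated. Basigin, also called EMMPRIN, is a membrane glycoprotein of the immunoglobulin superfamily known as an inducer of MMP synthesis in neighbouring fibroblasts and as a chaperone of lactate transporters.

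Knockdown was first checked in every library. YAP1 was at 28.1, 26.2 and 22.9 FPKM in the Sh-NC libraries and at 3.35, 2.67 and 2.58 FPKM in Sh-YAP1. Its paralog WWTR1 (TAZ) was at 42.2, 41.9 and 42.5 FPKM in the Sh-NC libraries and 52.1, 46.8 and 47.2 FPKM in Sh-YAP1, or 0.20 on the log2 scale (limma, adjusted p = 0.164). All 5 markers set for the line (VIM, CD44, AXL, CAV1 and EGFR) reached a mean of 1 FPKM, and PGR and ESR1 did not exceed 0.07 FPKM in any library. ERBB2, set as a low marker of the line, was nevertheless at 14.3 to 18.1 FPKM, and EPCAM at 2.43 to 3.27 FPKM. Of the markers of other cells, 2 of 8 fibroblast, 2 of 6 leukocyte and 1 of 4 endothelial genes reached a mean of 1 FPKM. The leukocyte genes ITGAM and AIF1 were listed at 0 in all 6 libraries, and PTPRC and the fibroblast genes FAP and PDGFRA did not exceed 0.09 FPKM. CD68, a lysosomal protein used as a macrophage marker, was at 56.2 to 80.2 FPKM and made up nearly all of the leukocyte sum, and COL1A1 was at 3.64 to 8.32 FPKM and made up most of the fibroblast sum. The summed level of the fibroblast markers was 9.12 to 12.2 FPKM in the Sh-NC libraries and 5.34 to 11.5 FPKM in Sh-YAP1, that of the leukocyte markers 58.1 to 80.4 and 67.3 to 82.8 FPKM, and that of the endothelial markers 1.01 to 2.13 and 1.06 to 1.84 FPKM. The fibroblast gene COL1A2 (1.28, 1.96 and 0.97 against 0.72, 0.17 and 0 FPKM) and the line markers AXL and CAV1 were lower in all Sh-YAP1 libraries. They were 3 of 28 markers, against 14.7% of the 14770 genes tested below. No marker was higher in all Sh-YAP1 libraries, and the part of these 3 in the results was not tested. Less RNA per cell and fewer cells expressing a gene cannot be told apart in these bulk libraries.

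In Sh-NC cells 6 of the 10 genes were present, meaning at 1 FPKM or more in all 3 libraries. They were BSG, TIMP1, TIMP2, MMP14, TIMP3 and MMP1. Ordered by the Sh-NC mean, FPKM being a level per length, BSG was highest at 314 ± 49.0 FPKM (SD, n = 3), followed by TIMP1 at 165 ± 7.69, TIMP2 at 114 ± 43.5, MMP14 at 97.3 ± 9.19, TIMP3 at 32.3 ± 2.03 and MMP1 at 1.61 ± 0.09 FPKM (SD, n = 3 each). TIMP1 exceeded TIMP2 in all 3 Sh-NC libraries, while TIMP2 and MMP14 could not be ordered, since MMP14 was above TIMP2 in Sh-NC replicate 3 and below it in replicates 1 and 2. Only 0.259% of all gene identifiers had a higher Sh-NC mean than BSG, and 1.07% had a higher mean than MMP14. The secreted proteases were low. MMP2 and MMP9 are the gelatinases, MMP3 a stromelysin, and MMP1 and MMP13 collagenases. MMP2 was at 0.32, 0.30 and 0.19 FPKM in Sh-NC, MMP3 at 0.16, 0.38 and 0.13 FPKM and MMP9 at 0.03, 0 and 0.06 FPKM. MMP13 was listed at 0 in all 6 libraries. MMP2 lies on chromosome 16 (55389700 to 55506691, plus strand), MMP9 on chromosome 20 (46008908 to 46016561, plus strand), and MMP3 (102835801 to 102843803) and MMP13 (102942995 to 102955734) on the minus strand of chromosome 11. MMP14, the membrane-anchored enzyme that cleaves fibrillar collagen at the cell surface, held 97.8% ± 0.13 (SD, n = 3) of the summed FPKM of the 6 MMPs in Sh-NC and 98.1% ± 0.28 (SD, n = 3) in Sh-YAP1.

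**Figure D1:**
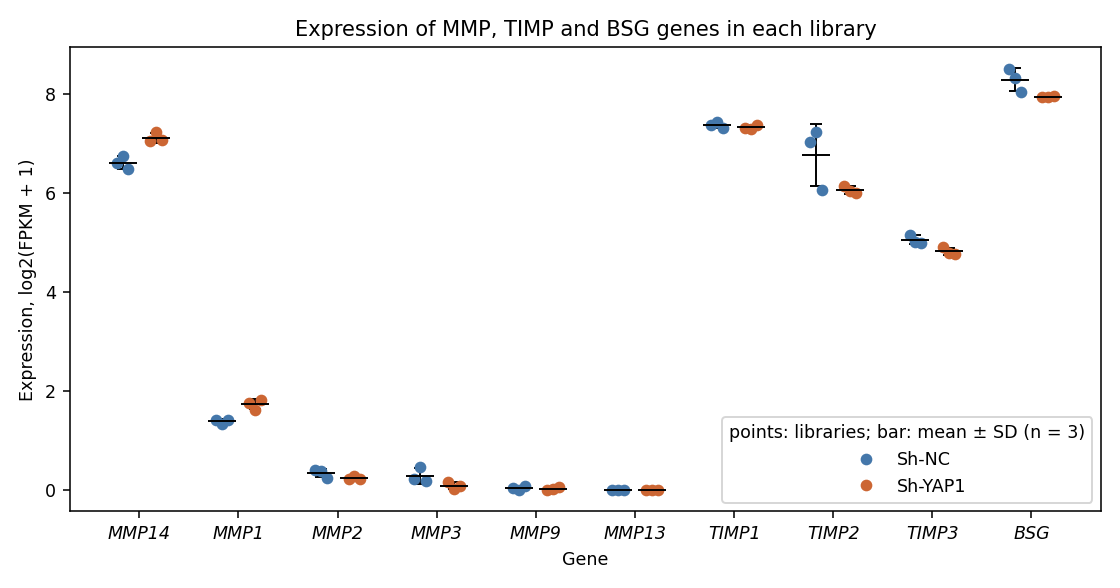
Expression of the 10 genes on the log2(FPKM + 1) axis, with 1 point per library, blue for Sh-NC and orange for Sh-YAP1, and bars for the mean ± SD of 3 libraries. MMP14 lies at 88.8 to 107 FPKM in the Sh-NC libraries and 131 to 149 FPKM in Sh-YAP1, while MMP2, MMP3, MMP9 and MMP13 lie near 0 in both groups.

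The design compares Sh-YAP1 with Sh-NC and so asks which of these genes change when YAP1 is depleted. The comparison used limma on log2(FPKM + 1) over the 14770 genes whose mean over all 6 libraries reached 0.5 FPKM, with Benjamini-Hochberg adjustment over all of them. Of the 10 genes, 6 passed this filter, and MMP2, MMP3, MMP9 and MMP13 did not. Of the 6 tested, 1 passed an adjusted p of 0.05 (MMP14, higher in Sh-YAP1), against 3.38% of all genes tested in either direction, 1.75% higher and 1.62% lower. In 4 of the 6 the groups did not overlap, MMP1 and MMP14 being higher and TIMP3 and BSG lower in Sh-YAP1, against 29.4% of all genes tested, 14.6% higher and 14.7% lower. The median log2 fold change of the 6 was -0.14, and the median size of change was 0.34, against medians of -0.00138 and 0.16 over all genes tested. Each gene was also given an exact two-sided permutation test, whose smallest p with 3 libraries against 3 is 0.1.

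MMP14 rose after YAP1 knockdown. It was at 96.2, 107 and 88.8 FPKM in replicates 1 to 3 of Sh-NC and at 131, 149 and 133.8 FPKM in Sh-YAP1 replicates 1 to 3. All Sh-YAP1 libraries were above all Sh-NC libraries. The mean was 97.3 ± 9.19 FPKM in controls and 138 ± 9.83 FPKM with knockdown (SD, n = 3 each), a ratio of 1.42. The log2 fold change was 0.50 (standard error 0.09, 95% interval 0.28 to 0.72, limma adjusted p = 0.0428), and the exact permutation test gave p = 0.1, its smallest value. The call rested on all 6 libraries. Leaving out any 1 of them kept the log2 fold change between 0.44 and 0.57 with a limma adjusted p of 0.076 to 0.141. The limma adjusted p was also over the threshold with no mean-variance trend (0.0618), with no filter on low genes (0.0886) and with the replicate number as a block (0.124).

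MMP14 (ENSG00000157227) spans bases 22836557 to 22849027 of chromosome 14 (plus strand, GRCh38, GENCODE 29), and 1 of its 6 transcript rows carried nearly all of the signal. This row was at 91.8, 104 and 85.7 FPKM in the Sh-NC libraries and at 126, 146 and 130 FPKM in Sh-YAP1, or 96.7% of the gene. The other 5 rows together were at 4.36, 3.25 and 3.12 FPKM in the Sh-NC libraries and 5.11, 3.38 and 3.84 FPKM in Sh-YAP1, and the groups overlapped there. Without the main row the log2 fold change of the remainder was 0.15 (adjusted p = 0.632, limma with Benjamini-Hochberg adjustment).

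The sequence upstream of MMP14 is shown because MMP14 was the one of the 10 genes that passed the test, and that of TIMP3 because it was the inhibitor whose Sh-YAP1 libraries were all lower than the Sh-NC libraries. Of the 10 genes, 4 had an entry in the RefSeq promoter table (GRCh38.p14). Both stretches end at the base before the first exon in GENCODE 29, run 5′ to 3′ on the plus strand, and carry GC boxes (GGGCGG or its reverse complement) in capitals.
MMP14 upstream, chr14:22836335-22836556: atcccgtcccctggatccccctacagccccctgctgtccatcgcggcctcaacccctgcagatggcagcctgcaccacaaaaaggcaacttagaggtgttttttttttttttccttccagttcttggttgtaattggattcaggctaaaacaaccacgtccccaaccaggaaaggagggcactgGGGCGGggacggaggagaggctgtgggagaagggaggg
TIMP3 upstream, chr22:32801455-32801700: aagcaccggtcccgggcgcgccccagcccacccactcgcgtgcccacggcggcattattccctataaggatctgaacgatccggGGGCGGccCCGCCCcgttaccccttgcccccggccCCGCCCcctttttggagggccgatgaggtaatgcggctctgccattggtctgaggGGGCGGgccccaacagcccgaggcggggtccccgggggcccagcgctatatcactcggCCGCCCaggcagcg
The MMP14 stretch held 1 GC box and the TIMP3 stretch 5, with a GC content of 56.3% and 72.0%. In the 250 bases before the RefSeq start, neither gene held a match to the TEAD motif GGAATG, the AP-1 motifs TGACTCA or TGAGTCA, or TATAAA, each searched on both strands. Over all 35116 promoters in the table, 11.9% held the TEAD motif, 4.2% an AP-1 motif, 42.6% a GC box and 10.7% TATAAA in the same 250 bases. These are letter matches in a short window and say nothing on binding of a factor.

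MMP1, the interstitial collagenase, was expressed at a low level. It was at 1.66, 1.51 and 1.67 FPKM in the Sh-NC libraries and at 2.37, 2.07 and 2.54 FPKM in Sh-YAP1. The Sh-YAP1 libraries were all above the Sh-NC libraries, with a log2 fold change of 0.35 (95% interval 0.11 to 0.58, adjusted p = 0.112, limma with Benjamini-Hochberg adjustment), which did not pass the threshold. With a pseudocount of 0.01 the value was 0.52. It has a single transcript row. MMP1 lies on chromosome 11 from 102789920 to 102798160 on the minus strand, in a run of 9 MMP genes that starts 287.1 kb beyond the end of YAP1 itself, with MMP13 the farthest at 709.6 kb. MMP1 was the only one of these 9 that reached 1 FPKM in any library. The others (MMP7, MMP20, MMP27, MMP8, MMP10, MMP3, MMP12 and MMP13) did not exceed 0.38 FPKM, and 5 of them were listed at 0 throughout.

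Among the weakly detected proteases, MMP3 was at 0.12, 0.02 and 0.05 FPKM in Sh-YAP1, below its lowest Sh-NC value of 0.13 FPKM by 0.01 FPKM or more, a gap as small as the last decimal of the values. MMP2 was at 0.17, 0.22 and 0.16 FPKM in Sh-YAP1, and MMP9 at 0, 0.01 and 0.04 FPKM. For both, the groups overlapped. With no filter on low values, the log2 fold change was -0.10 for MMP2 (adjusted p = 0.533), -0.20 for MMP3 (adjusted p = 0.414) and -0.02 for MMP9 (adjusted p = 0.81, limma with Benjamini-Hochberg adjustment).

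The inhibitors did not pass the test. TIMP1, which inhibits most secreted MMPs and is a weak inhibitor of MMP14, was at 164, 173 and 158 FPKM in the Sh-NC libraries and at 159, 155 and 165 FPKM in Sh-YAP1, with overlapping groups. Its log2 fold change was -0.05 with a 95% interval of -0.20 to 0.11 (adjusted p = 0.724, limma with Benjamini-Hochberg adjustment), and its sign turned with quantile normalization (0.030). With 1 library left out it ranged from -0.078 (without Sh-NC replicate 3) to -0.011 (without Sh-NC replicate 2), and without the main row it was -0.47. The total of TIMP1 was steadier than the rows that make it up. The main row was at 99.1, 146 and 103 FPKM in the Sh-NC libraries and 119, 107 and 146 FPKM in Sh-YAP1, while the second was at 45.5, 12.5 and 31.4 FPKM and 16.3, 30.1 and 12.8 FPKM. TIMP1 lies on chromosome X from 47582313 to 47586789, inside the span of SYN1 on the opposite strand, and SYN1 did not exceed 0.07 FPKM.

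TIMP2 differed more between the Sh-NC libraries than between the groups. It was at 129, 149 and 65.4 FPKM in replicates 1 to 3 of Sh-NC and at 69.8, 64.7 and 62.6 FPKM in Sh-YAP1. Sh-NC replicate 3 lay among the Sh-YAP1 libraries, and replicates 1 and 2 far above them. The log2 fold change was -0.71 with a wide 95% interval of -1.40 to -0.01 (adjusted p = 0.22, limma with Benjamini-Hochberg adjustment). Without Sh-NC replicate 3 it was -1.06 and passed (adjusted p = 0.0281), and without Sh-NC replicate 2 it was -0.48 (adjusted p = 0.421). The spread sat in 1 of the 5 transcript rows. The second row was at 75.3, 118 and 18.4 FPKM in the Sh-NC libraries and at 18.3, 17.01 and 17.9 FPKM in Sh-YAP1, so that Sh-NC replicate 3 exceeded the highest Sh-YAP1 library by 18.40 against 18.34 FPKM. The first row was at 52.8, 30.4 and 46.4 FPKM in the Sh-NC libraries and at 50.5, 47.0 and 43.6 FPKM in Sh-YAP1, with a log2 fold change of 0.15 (95% interval -0.38 to 0.69). Without the first row the value for TIMP2 was -1.53 (limma adjusted p = 0.211). The second row held 58.4%, 79.1% and 28.1% of TIMP2 in Sh-NC replicates 1 to 3 and between 26.3% and 28.6% in Sh-YAP1. The rows carry no transcript identifier, so which TIMP2 transcript this is remains unknown. Of the genes overlapping TIMP2 on chromosome 17 (78852977 to 78925387, minus strand), CEP295NL on the same strand was at 0.12 to 0.21 FPKM in all libraries.

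**Figure D2:**
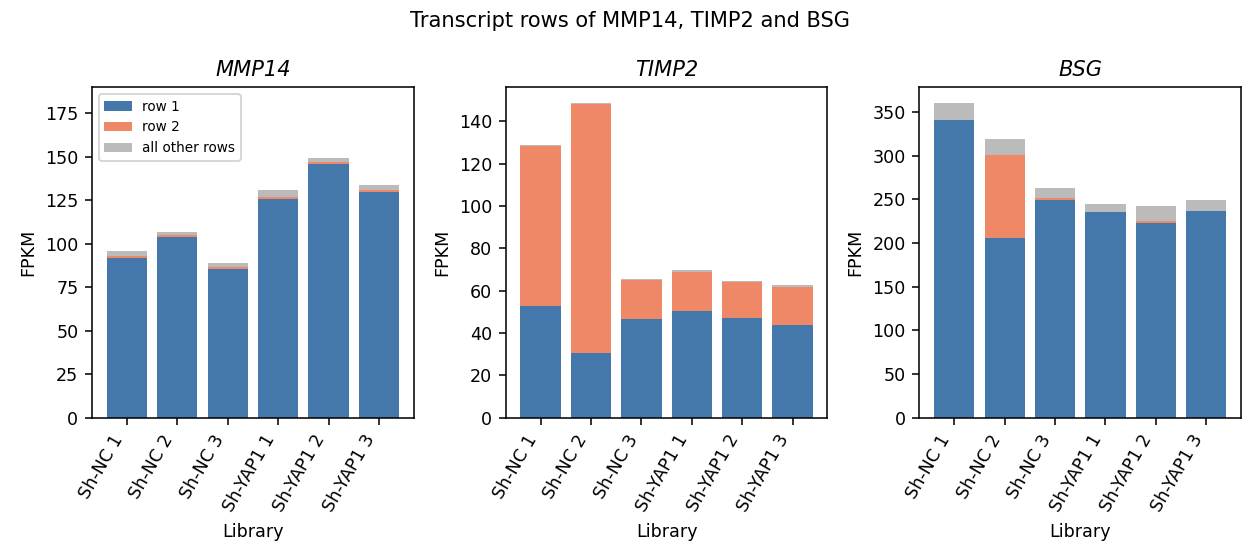
Stacked FPKM of the transcript rows of MMP14, TIMP2 and BSG in each of the 6 libraries, with the row of the highest mean in blue, the next in orange and all others in grey. MMP14 is nearly a single row. The orange TIMP2 row reaches 75.3 and 118 FPKM in Sh-NC replicates 1 and 2 and 17.01 to 18.4 FPKM in the other 4 libraries, and the orange BSG row reaches 94.99 FPKM in Sh-NC replicate 2 alone.

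TIMP3, which binds the matrix and inhibits ADAM and ADAMTS proteases as well as MMPs, was at 34.6, 31.4 and 30.9 FPKM in the Sh-NC libraries and at 29.04, 26.4 and 26.3 FPKM in Sh-YAP1. The Sh-YAP1 libraries were all below the Sh-NC libraries, with a difference of -0.24 on the log2 scale (95% interval -0.43 to -0.05, adjusted p = 0.155, limma with Benjamini-Hochberg adjustment). It has 1 transcript row and lies inside the span of SYN3 on the opposite strand of chromosome 22 (32801701 to 32863043, plus strand), and SYN3 did not exceed 0.02 FPKM.

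BSG was at 360 FPKM in Sh-NC replicate 1, 319 in replicate 2 and 263 in replicate 3, and at 245, 243 and 249.5 FPKM in Sh-YAP1. The Sh-YAP1 libraries lay close together and all below the Sh-NC libraries, which were spread over a wider range (SD 3.30 against 49.0 FPKM). The log2 fold change was -0.34 (95% interval -0.62 to -0.06, adjusted p = 0.162, limma with Benjamini-Hochberg adjustment). Of its 16 transcript rows, the main row held 88.8% and overlapped between the groups, at 341, 206 and 249.6 FPKM in the Sh-NC libraries and 235, 223 and 237 FPKM in Sh-YAP1. Without the main row the log2 fold change of BSG was -1.12 (limma adjusted p = 0.439). A second row was listed at 0 in Sh-NC replicate 1, at 94.99 FPKM in replicate 2 and at 1.55 FPKM in replicate 3, and at no more than 2.48 FPKM in Sh-YAP1. Sh-NC replicate 2 thus had the lowest main row of all 6 libraries and still the second highest Sh-NC total of BSG. BSG lies on the plus strand of chromosome 19 (571277 to 583493), where the antisense gene AC009005.1 was at 5.03 to 7.46 FPKM. Whether the counting used strand is not given in the sources used here.

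Over the 10 genes, 26 of 49 transcript rows had a mean of at least 0.1 FPKM and were tested. None passed limma's adjusted threshold of 0.05 over all 77655 rows tested, of which 0.0515% did, and 2 had an unadjusted p under 0.05, the main row of MMP14 and the fourth row of BSG, against 6.12% of all rows tested. The groups did not overlap in 5 of the 26 rows, against 13.1% of all rows tested.

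As a description, the level of MMP14 was set against that of its partners within each library. The ratio of MMP14 to TIMP1 was 0.59, 0.62 and 0.56 in Sh-NC and 0.83, 0.96 and 0.81 in Sh-YAP1. That of MMP14 to TIMP2 was 0.75, 0.72 and 1.36 in Sh-NC and 1.88, 2.31 and 2.14 in Sh-YAP1, and that of MMP14 to TIMP3 was 2.78, 3.41 and 2.88 and then 4.51, 5.65 and 5.10. Against BSG it was 0.27, 0.34 and 0.34 in Sh-NC and 0.53, 0.61 and 0.54 in Sh-YAP1. In all 4 pairs the Sh-YAP1 libraries lay above the Sh-NC libraries. All 4 ratios share MMP14, which was itself higher in every Sh-YAP1 library, so they are not separate results. TIMP3 and BSG were lower in every Sh-YAP1 library, so for these the separation followed from the gene values. The summed FPKM of the 3 TIMPs was 327, 353 and 254 in Sh-NC and 258, 246 and 254 in Sh-YAP1, so the groups overlapped through Sh-NC replicate 3. MMP14 to MMP1 was 57.9, 70.9 and 53.2 in Sh-NC and 55.3, 72.1 and 52.7 in Sh-YAP1.

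**Figure D3:**
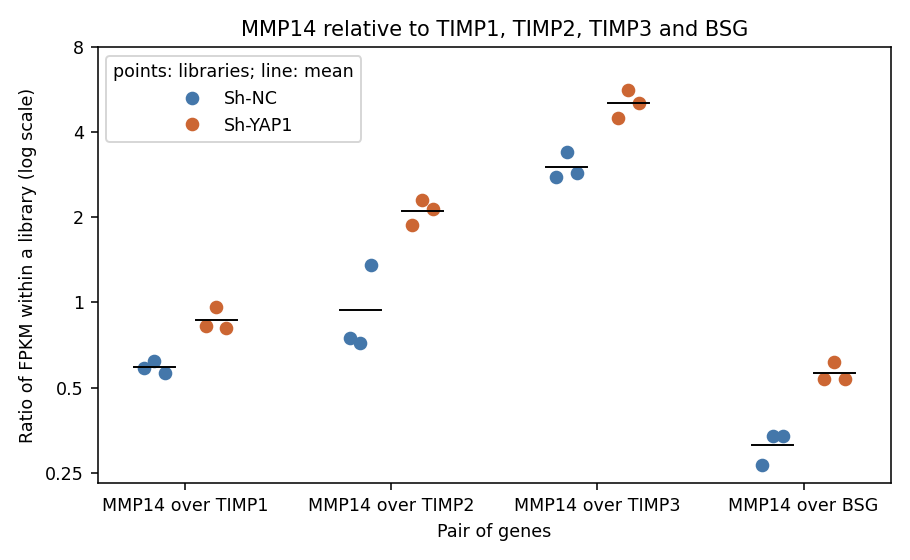
Ratio of MMP14 FPKM to the FPKM of TIMP1, TIMP2, TIMP3 and BSG within each library, on a log axis, with 1 point per library (blue Sh-NC, orange Sh-YAP1) and a line at the mean of 3. The 3 Sh-YAP1 points lie above the 3 Sh-NC points in every pair, and Sh-NC replicate 3 stands at 1.36 for TIMP2 against 0.72 and 0.75 in the other Sh-NC libraries. All pairs share MMP14, which was itself higher in every Sh-YAP1 library.

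The wider family of 37 related genes gave the setting. Of these, 21 were tested and 3 passed an adjusted p of 0.05, 2 higher and 1 lower in Sh-YAP1, against 3.38% of all genes tested (1.75% higher and 1.62% lower), with a median log2 fold change of 0.11. All 3 are disintegrin metalloproteinases, a class that made up 7 ADAM and 4 ADAMTS genes of the 21 tested. ADAM19, a membrane protease that sheds growth factor precursors, rose from 13.1, 12.3 and 10.4 FPKM to 28.6, 25.3 and 24.1 FPKM, with a log2 fold change of 1.07 (95% interval 0.80 to 1.33, adjusted p = 0.0109, limma with Benjamini-Hochberg adjustment). Without its main transcript row the value was 0.44 (adjusted p = 0.804). ADAM15, a membrane protease with an integrin-binding disintegrin domain, rose from 25.8, 26.9 and 23.3 FPKM to 43.8, 49.9 and 56.9 FPKM, with a log2 fold change of 0.95 (95% interval 0.69 to 1.22, adjusted p = 0.0135). Leaving out Sh-NC replicate 1, Sh-NC replicate 2 or Sh-YAP1 replicate 2 took it over the threshold, at 0.0604, 0.0531 and 0.0588 (limma, Benjamini-Hochberg). ADAMTS1, a secreted protease that cleaves proteoglycans, fell from 9.27, 9.07 and 10.2 FPKM to 5.74, 6.52 and 6.81 FPKM, with a log2 fold change of -0.52 (95% interval -0.74 to -0.29, adjusted p = 0.0389). Without any 1 library its limma adjusted p was 0.0925 to 0.118, and with no filter 0.0787. With the replicate number as a block none of the 3 passed, at a limma adjusted p of 0.0996 for ADAM19, 0.118 for ADAM15 and 0.138 for ADAMTS1.

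Among the 7 ADAM genes, the groups did not overlap in 6, all higher in Sh-YAP1, against 14.6% of all genes tested in that direction, and 2 of the 7 passed the adjusted test, against 1.75% called higher over all genes. The median log2 fold change of the 7 was 0.29. These 7 are a chosen list and not every ADAM gene tested. ADAM22, outside the list, had a log2 fold change of -0.23 with overlapping groups. ADAM8, ADAM9, ADAM15 and ADAM19 stayed higher with quantile normalization and with median centring, while without the main transcript row ADAM8 was at -0.12 and ADAM9 at 0.30, against 0.16 with it. ADAM8 was at 27.2 ± 1.26 FPKM in the Sh-NC libraries and 33.6 ± 1.91 FPKM with knockdown (SD, n = 3 each, adjusted p = 0.0895), and ADAM9 at 38.7 ± 2.16 and 43.2 ± 2.80 FPKM (SD, n = 3 each, adjusted p = 0.307, limma with Benjamini-Hochberg adjustment). Of 17 other MMPs, 3 were present in Sh-NC, 5 were listed at 0 in all libraries, and none of the 4 tested passed the adjusted threshold with limma, with 2 at an unadjusted p under 0.05, which 21.9% of all genes tested reached. MMP11, stromelysin 3, was at 1.15, 1.44 and 1.63 FPKM in the Sh-NC libraries and 2.81, 2.13 and 2.44 FPKM in Sh-YAP1 (log2 fold change 0.52, limma adjusted p = 0.0775), and its value was 0.81 with a pseudocount of 0.01. MMP19 was at 1.84, 1.90 and 2.06 FPKM in the Sh-NC libraries and 0.46, 1.12 and 1.42 FPKM in Sh-YAP1 (log2 fold change -0.58, adjusted p = 0.152, limma with Benjamini-Hochberg adjustment). Without Sh-YAP1 replicate 1 the MMP19 value was -0.37, and with pseudocounts of 0.1 and 0.01 it was -1.004 and -1.09. MMP15, another membrane-type MMP, had a log2 fold change of -0.07 (95% interval -0.38 to 0.23), from -0.16 without Sh-YAP1 replicate 2 to -0.007 without Sh-NC replicate 2.

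The other inhibitors and the processing enzymes had small differences that did not pass. TIMP4 was at 10.03 ± 0.56 FPKM in the Sh-NC libraries and 9.36 ± 0.54 FPKM with knockdown, and RECK, a membrane-anchored inhibitor of MMPs, at 3.06 ± 0.19 and 3.06 ± 0.20 FPKM (SD, n = 3 each). The log2 fold change of TIMP4 was -0.09, and -0.047 without Sh-YAP1 replicate 2. FURIN, the convertase that cleaves the prodomain of MMP14, was at 23.9 ± 0.93 and 25.8 ± 1.41 FPKM (SD, n = 3 each), which differed by 0.11 on the log2 scale (95% interval -0.07 to 0.28). Without the main FURIN row the value was 0.45, with a standard error of 1.15 (limma adjusted p = 0.856). The convertases PCSK5 and PCSK7 had log2 fold changes of -0.07 and -0.09, and the secreted proteases ADAMTS12 and ADAMTS15 of 0.20 and 0.11. With 1 library left out PCSK5 ranged from -0.19 (without Sh-NC replicate 3) to 0.040 (without Sh-NC replicate 2), and PCSK7 from -0.16 (without Sh-YAP1 replicate 1) to -0.020 (without Sh-YAP1 replicate 2). ADAMTS12 ranged from 0.049 (without Sh-YAP1 replicate 2) to 0.307 (without Sh-YAP1 replicate 3), and ADAMTS15 from 0.058 (without Sh-NC replicate 3) to 0.142. LRP1, the endocytic receptor that clears MMP and TIMP complexes, had a log2 fold change of 0.21 (95% interval -0.04 to 0.46), which was 0.13 without Sh-NC replicate 3 and 0.10 without its main transcript row.

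**Figure D4:**
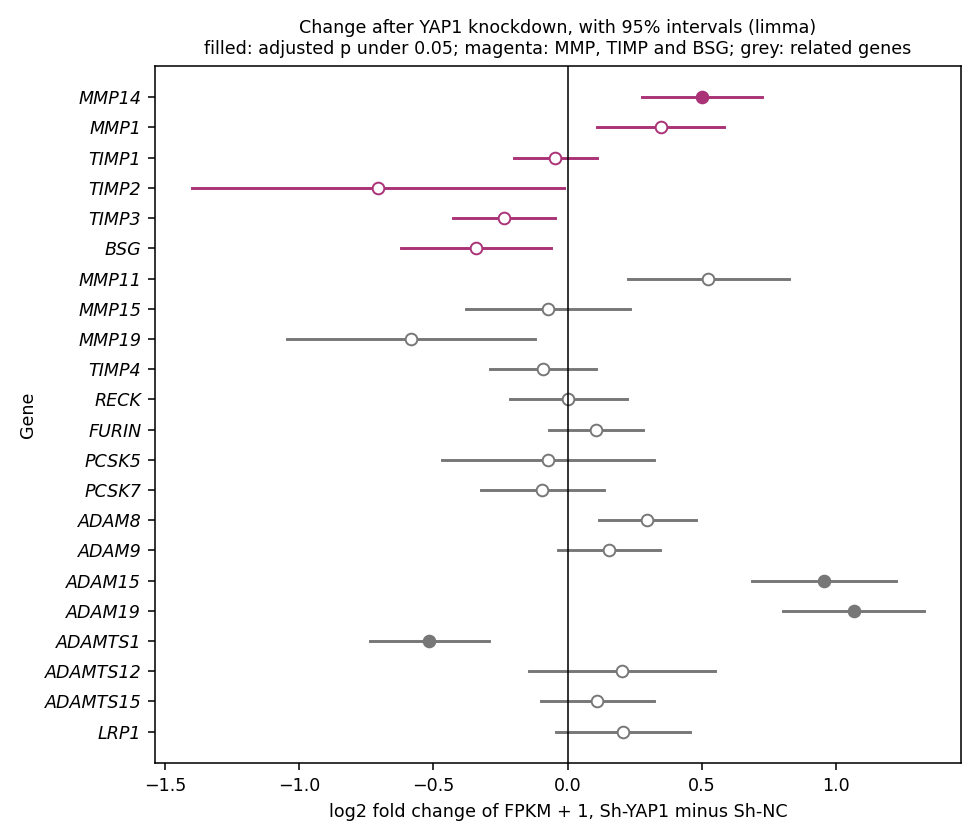
Log2 fold change of FPKM + 1 (Sh-YAP1 minus Sh-NC) with 95% intervals from limma for the 6 tested MMP, TIMP and BSG genes (magenta) and 16 related genes (grey), filled where the adjusted p was under 0.05. MMP14, ADAM15 and ADAM19 are filled to the right of 0 and ADAMTS1 to the left, and the interval of TIMP2 is the widest of the magenta genes.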

How the data were processed

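RNA from 3 Sh-NC and 3 Sh-YAP1 libraries of MDA-MB-231 cells was sequenced. The study's methods name LC-Bio Technology as its RNA sequencing provider, but cite a different data record there, so whether this applies to these libraries is uncertain. The authors deposited FPKM values with 2 decimals for 229420 transcript rows of 60612 gene identifiers per library. The submitters' processing notes name hg19, Bowtie 0.12.2 and HISAT2 2.0. The quantification tool, annotation and filters are not given in the sources used here. All 10 genes had as many rows as GENCODE 29 lists transcripts, and positions are from GENCODE 29 on GRCh38, matched by gene identifier. FPKM gives no depth, so no interval for counting error was computed.

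Rows were summed per gene. Values were taken as log2(FPKM + 1), genes averaging 0.5 FPKM or more and rows averaging 0.1 or more were kept, and groups were compared with limma 3.58.1 in R 4.3.3 (empirical Bayes, trend option on, Benjamini-Hochberg adjustment), condition being the only factor. Fold changes on this scale understate the change of low genes. Single genes also had an exact permutation test. The code was tested on simulated data. Other steps used Python 3.11.15, numpy 2.4.6, pandas 2.3.3 and matplotlib 3.10.9.

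The text names all 10 genes, YAP1, WWTR1, and from the wider list the genes at an adjusted p under 0.05 and the 3 with the highest Sh-NC mean in each subgroup, 16 in all. Other MMPs of the chromosome 11 cluster, MMP21, ADAM17, ADAM22, ADAMTS5, SYN1, SYN3, CEP295NL, AC009005.1 and cell markers are named beside them. The genes and lists were chosen with earlier results of these data known. Alternatives covered the pseudocount, normalization, variance trend, filter, replicate block, libraries left out and the transcript rows summed.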

Additional observations from a re-analysis of the deposited data

How the results depend on the processing

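Of the 10 genes, 1 passed an adjusted p of 0.05 (limma, Benjamini-Hochberg), and this count was 0 with no mean-variance trend, with no filter, with the replicate number as a block (replicate block) and without the main transcript row of each gene. It was 0 to 1 with 1 library left out, the gene that passed without Sh-NC replicate 3 being TIMP2. MMP14 kept its direction under all 16 alternatives and stayed under the threshold in 6, with an adjusted p from 0.0275 to 0.632. The count of all genes was 499, and 232 with no filter, 1 with the replicate block (2779 at an unadjusted p under 0.05) and 80 to 170 with 1 library left out. The wider list had 3 genes past the threshold, 0 with the replicate block, 1 without the main transcript rows and 1 to 2 with 1 library left out. Same-numbered libraries deviated from their group means with correlations of -0.028, 0.062 and 0.004 across genes. These values give no sign of pairing, but cannot show whether same-numbered libraries shared a culture or a batch. The direction turned for TIMP1 (0.030) and RECK (-0.016) with quantile normalization, for RECK with median centring (-0.014), and for PCSK7 (0.18) and ADAM8 (-0.12) without the main transcript row. With 1 library left out, RECK ranged from -0.035 to 0.044 (0.079 without its main transcript row) and PCSK5 from -0.19 to 0.040. The cause of these changes was not tested. Some alternatives bring fewer libraries or more genes, and the replicate block keeps both but adds terms to the model. MMP1, MMP9, TIMP3, TIMP4 and ADAMTS15 have 1 transcript row and so no value without it. ADAMTS1, MMP15 and MMP19 without their main row fell under the filter. Precision is limited by 3 libraries per group and unknown depth.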
